A study of Mus musculus with 10 samples.

Results

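The transcripts analysed here encode the AMP-activated protein kinase (AMPK) and its upstream kinases. They were followed in the livers of mice lacking Fbp1, the fructose bisphosphatase of gluconeogenesis. The 8 genes were chosen by name from the 53392 genes of the deposited count table: the catalytic subunits Prkaa1 and Prkaa2, the beta subunits Prkab1 and Prkab2, the gamma subunits Prkag1 and Prkag2, and the upstream kinases Stk11 and Camkk2. The livers came from 24-week-old C57BL/6 mice, were snap-frozen for RNA sequencing and fell into 2 groups, Fbp1-deleted (n = 5, replicates 6 to 10, described as a hepatic deficiency) and wild type (WT, n = 5, replicates 1 to 5). The sources used here name no treatment for either group, and neither the promoter or Cre line behind the deletion nor the sex, feeding state or hour of collection. All 8 genes passed the filter on low counts. Of them, 3 passed the test of Fbp1-deleted against WT, where 20.6% of all genes tested passed. Camkk2 and Stk11 were lower and Prkaa2 was higher in Fbp1-deleted liver. Camkk2 passed in each of the 10 fits that left out 1 library, while Stk11 and Prkaa2 did not pass in 6 and 7 of them.

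AMPK is a kinase of the cell's energy state, built of a catalytic alpha, a scaffold beta and a nucleotide-binding gamma subunit. It is switched on when AMP or ADP displaces ATP on the gamma subunit and when an upstream kinase phosphorylates the activation loop of the alpha subunit. In liver it is known for restraining the synthesis of fatty acids and sterols and for favouring fat oxidation and autophagy. AMPK is also known to sense glucose at the lysosome, where aldolase without bound fructose bisphosphate, the substrate of Fbp1, favours its activation. Transcript levels do not measure the activity of the kinase.

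The libraries held between 17778395 and 23894812 estimated counts. Fbp1 stood between 7.38 and 13.4 counts-per-million (CPM) in the 5 Fbp1-deleted libraries, against 778 to 1050 CPM in the 5 WT libraries, so the libraries matched their labels at this gene. On the first principal component of log2 CPM (37.6% of the variance) Fbp1-deleted replicate 8 scored 6.39, while the other 4 Fbp1-deleted libraries scored between 35.3 and 54.5 and the WT libraries between -46.6 and -18.2. Defining liver markers were present, with 8 hepatocyte markers summing to between 88708 and 100024 CPM in Fbp1-deleted and between 52093 and 97103 CPM in WT libraries. Of 15392 genes tested over the whole table, 20.6% passed an adjusted p of 0.05 in either direction, 10.6% higher and 10% lower in Fbp1-deleted liver (edgeR quasi-likelihood test, Benjamini-Hochberg adjustment). Genes that rose were 51.5% of those calls, against 40.3% with upper quartile factors and 37.7% with library totals alone. In 13.5% of the genes tested the CPM ranges of the groups did not overlap. Each change below is a fitted log2 ratio of Fbp1-deleted over WT, followed by its standard error (SE).

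Camkk2, the calcium- and calmodulin-dependent kinase that phosphorylates AMPK when cytosolic calcium rises, fell the most of the 8 transcripts. The gene (ENSMUSG00000029471.13) is a protein-coding gene of chromosome 5 and spans 122731170 to 122779409 (GRCm38, minus strand). Its level was 6.32, 8.64, 12.0, 8.25 and 7.88 CPM in Fbp1-deleted replicates 6 to 10, against 13.2, 14.9, 17.3, 23.0 and 23.1 CPM in WT replicates 1 to 5. Every Fbp1-deleted library thus lay below every WT library, and the nearest pair were Fbp1-deleted replicate 8 and WT replicate 1. The mean was 8.62 ± 2.09 CPM in Fbp1-deleted and 18.3 ± 4.56 CPM in WT liver (SD, n = 5 each), a change of -1.08 (SE 0.19, adjusted p = 0.00209, edgeR), or 2.12-fold lower. The gene had between 132 and 449 counts per library, and 3.49% of the genes tested had a lower log2 change. The call held in each of the 10 fits that left out 1 library, with changes between -1.23 and -0.98. Of 6 markers of Kupffer cells and macrophages, 2 (Csf1r and Vsig4) fell in the same livers and none rose. None of the 6 was at 0 in all libraries, and their sum was between 127 and 192 CPM in Fbp1-deleted and between 172 and 233 CPM in WT libraries. Their part in the change of Camkk2 was not tested. In whole tissue, fewer cells of a type and less RNA per cell cannot be told apart.

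Stk11 encodes LKB1, the constitutively active kinase that phosphorylates AMPK under energy stress and also acts on a family of related kinases. It was the most abundant of the 8 transcripts per length and fell by a smaller step. Stk11 (ENSMUSG00000003068.16) is a protein-coding gene of chromosome 10 and spans 80115803 to 80130682 (plus strand). Its level was 105, 137, 117, 110 and 108 CPM in Fbp1-deleted replicates 6 to 10, against 138, 142, 148, 138 and 161 CPM in WT replicates 1 to 5. The groups did not overlap, although Fbp1-deleted replicate 7 lay just under the lowest WT library. The mean was 115.6 ± 12.8 CPM in Fbp1-deleted and 145 ± 9.56 CPM in WT liver (SD, n = 5 each), a change of -0.33 (SE 0.10, adjusted p = 0.0281, edgeR), or 1.26-fold lower. Stk11 did not pass when Fbp1-deleted replicate 6, 9 or 10 was left out (edgeR adjusted p = 0.0836, 0.0752 and 0.0546) and without WT replicate 2, 3 or 5 (0.0558, 0.0555 and 0.0647), with changes between -0.40 and -0.30 over all 10 such fits. The neighbouring gene Cbarp, on the opposite strand, shares 232 exon bases with Stk11 and stood at 4.22 ± 1.60 CPM in Fbp1-deleted and 3.32 ± 0.26 CPM in WT liver (SD, n = 5 each).

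**Figure D1:**
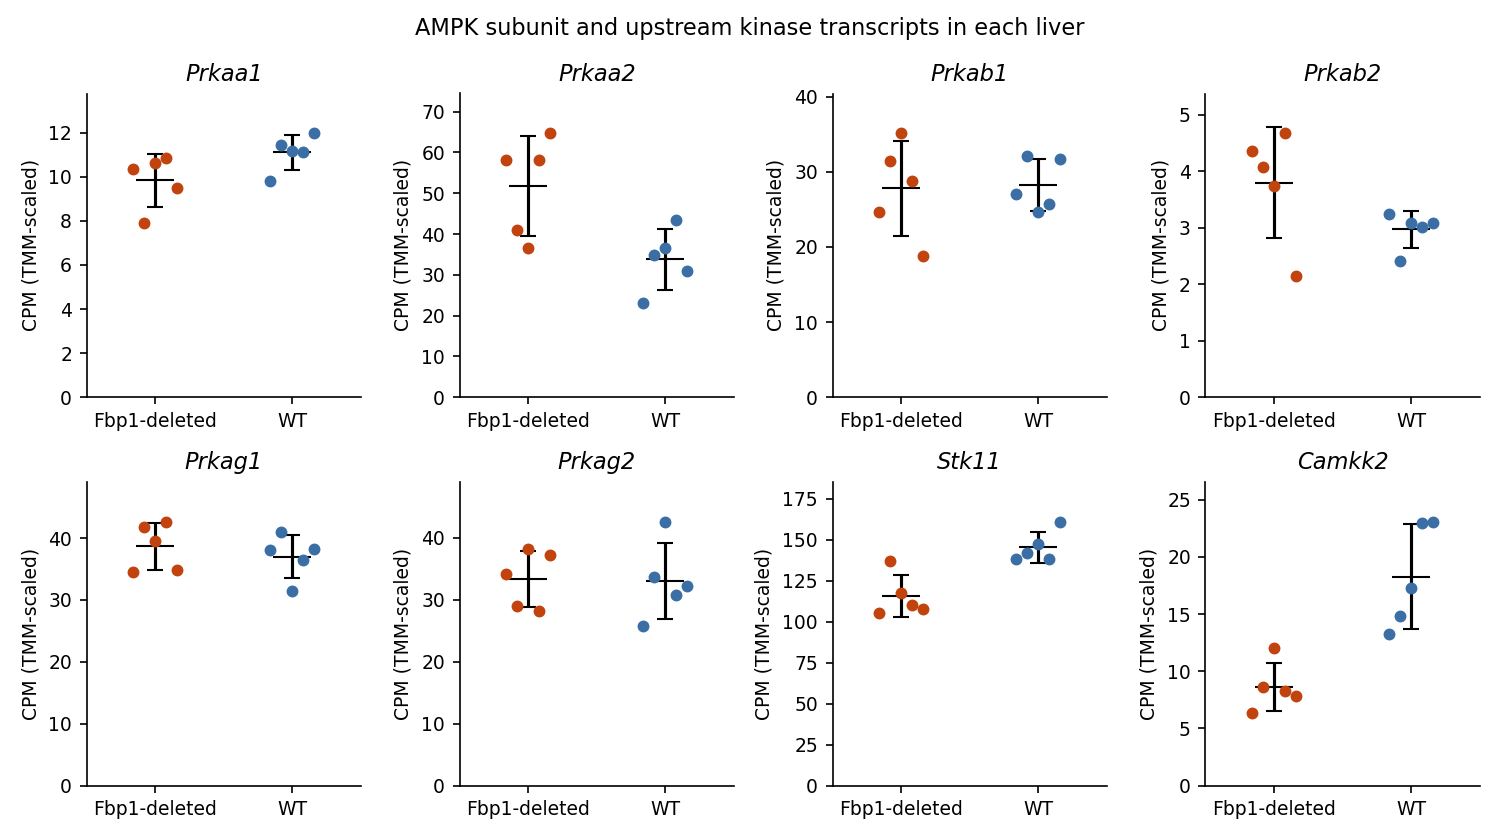
TMM-scaled CPM of the 8 transcripts (y axis, linear from 0) in each Fbp1-deleted (left) and WT (right) liver; each point is 1 library, and the black marks are the mean and SD of 5. Camkk2 and Stk11 are lower in all Fbp1-deleted libraries, and the ranges of the other 6 transcripts overlap between the groups.

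Of the catalytic subunits, Prkaa2 rose and Prkaa1 did not pass the test. Prkaa2 encodes alpha2, the form known to predominate in muscle, and both forms are known in mouse hepatocytes. Prkaa2 (ENSMUSG00000028518.8) is a gene of chromosome 4 and spans 105029874 to 105109890 (minus strand). Its level was 58.1, 40.9, 36.5, 58.3 and 64.8 CPM in Fbp1-deleted replicates 6 to 10, against 23.0, 35.0, 36.7, 43.4 and 30.9 CPM in WT replicates 1 to 5. Fbp1-deleted replicates 6, 9 and 10 lay above all WT libraries, and replicates 7 and 8 lay within the WT range. The mean was 51.7 ± 12.3 CPM in Fbp1-deleted and 33.8 ± 7.52 CPM in WT liver (SD, n = 5 each), a change of 0.61 (SE 0.19, adjusted p = 0.0348, edgeR), or 1.53-fold higher. Prkaa2 did not pass when Fbp1-deleted replicate 6, 9 or 10 was left out (edgeR adjusted p = 0.0846, 0.0828 and 0.0843) and without WT replicate 1, 2, 3 or 5 (0.0666, 0.0689, 0.0520 and 0.0853). The change was between 0.50 and 0.72 over all 10 such fits. Of the 8 hepatocyte markers, Tat and Cps1 passed the test upward and none downward. The others did not pass, with changes between -0.30 (Hnf4a) and 0.89 (Cyp3a11). The part of these markers in the change of Prkaa2 was not tested.

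Prkaa1, which encodes the widely expressed alpha1 (ENSMUSG00000050697.9, chromosome 15, 5143861 to 5181899, plus strand), stood at 10.3, 7.91, 10.6, 10.9 and 9.48 CPM in Fbp1-deleted replicates 6 to 10, against 9.79, 11.4, 11.2, 11.1 and 12.0 CPM in WT replicates 1 to 5. The groups overlapped, with Fbp1-deleted replicate 7 the lowest of the 10 libraries. The change was -0.17 (SE 0.12, 95% interval -0.44 to 0.09, adjusted p = 0.343, edgeR).

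The beta subunits join the alpha and gamma subunits and carry a glycogen-binding module. Neither passed the test. Prkab1 (ENSMUSG00000029513.14, chromosome 5, 116013586 to 116024508, minus strand) was the more abundant, with 24.7, 31.5, 35.1, 28.8 and 18.8 CPM in Fbp1-deleted replicates 6 to 10, against 27.1, 32.2, 24.7, 25.7 and 31.7 CPM in WT replicates 1 to 5. Both the highest and the lowest of these 10 values belonged to Fbp1-deleted livers, replicates 8 and 10. The change was -0.03 (SE 0.15, 95% interval -0.35 to 0.30, adjusted p = 0.925, edgeR). Prkab2 (ENSMUSG00000038205.12, chromosome 3, 97658193 to 97673812, plus strand) was the rarest of the 6 subunits chosen, with between 39 and 91 counts per library. It stood at 4.36, 4.07, 3.73, 4.67 and 2.15 CPM in Fbp1-deleted replicates 6 to 10, against 3.25, 2.41, 3.09, 3.0 and 3.09 CPM in WT replicates 1 to 5. Replicates 6 to 9 of the Fbp1-deleted livers lay above all WT libraries and replicate 10 below them, for a change of 0.36 (SE 0.21, 95% interval -0.10 to 0.82, adjusted p = 0.263, edgeR). Without replicate 10 the change of Prkab2 was 0.50, which did not pass either (adjusted p = 0.0711, edgeR).

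The gamma subunits bind AMP, ADP and ATP and so hold the energy sensor of the complex. Both changed by less than the spread between livers. Prkag1 (ENSMUSG00000067713.7, chromosome 15, 98812797 to 98831521, minus strand) stood at 34.4, 41.8, 39.6, 42.7 and 34.9 CPM in Fbp1-deleted replicates 6 to 10, against 38.1, 41.0, 31.4, 36.4 and 38.2 CPM in WT replicates 1 to 5, and its change was 0.06 (SE 0.10, 95% interval -0.16 to 0.28, adjusted p = 0.705, edgeR). Prkag2 (ENSMUSG00000028944.14, chromosome 5, 24862744 to 25100642, minus strand) stood at 34.2, 29.0, 38.1, 28.2 and 37.2 CPM in Fbp1-deleted replicates 6 to 10, against 25.8, 33.6, 42.6, 30.8 and 32.2 CPM in WT replicates 1 to 5, and its change was 0.02 (SE 0.14, 95% interval -0.27 to 0.31, adjusted p = 0.949, edgeR). The lowest and the highest library of Prkag2 were both WT. The third gamma subunit, Prkag3, known chiefly from fast skeletal muscle, was below the filter on low counts, at 0.51 ± 0.46 CPM in Fbp1-deleted and 0.25 ± 0.15 CPM in WT liver (SD, n = 5 each). Skeletal muscle markers (5, with Myh4 at 0 in all libraries) summed to between 0.386 and 1.5 CPM in Fbp1-deleted and between 1.03 and 2.0 CPM in WT libraries.

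**Figure D2:**
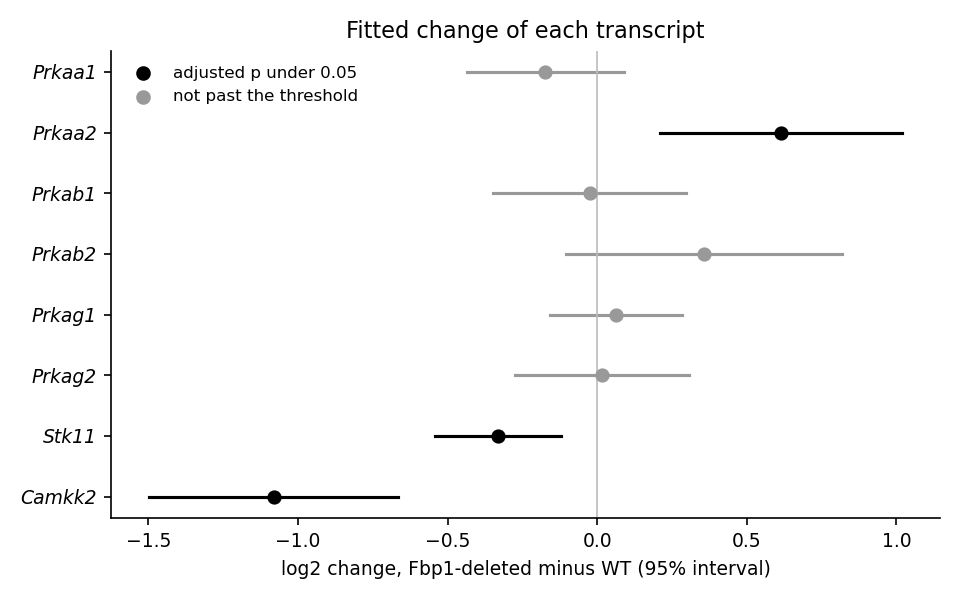
Fitted log2 change of each transcript, Fbp1-deleted minus WT (x axis), with its 95% interval as a line; black marks an adjusted p under 0.05 and grey the rest. Camkk2 at -1.08 lies farthest from 0, and the intervals of all subunits except Prkaa2 include 0.

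In all, 1 of the 8 transcripts rose and 2 fell, with a median log2 change of -0.0046 beside 0.0093 over all genes tested. The calls are 37.5% of the 8 genes, where 20.6% of all genes tested passed, and the share among the 8 rests on 3 calls. Leaving out 1 library gave between 0 and 1 higher and between 1 and 2 lower. Camkk2 was called in every one of those fits.

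Scaled by the length of merged exons (CPM per kb), Stk11 was the most abundant of the 8 in both groups, at 25.2 ± 2.80 CPM per kb in Fbp1-deleted and 31.7 ± 2.09 CPM per kb in WT liver (SD, n = 5 each). Prkag1 followed with 17.8 ± 1.76 CPM per kb in Fbp1-deleted and 17.0 ± 1.63 CPM per kb in WT liver, and Prkab1 with 9.06 ± 2.05 CPM per kb in Fbp1-deleted and 9.22 ± 1.12 CPM per kb in WT liver. Prkag2 and Prkaa2 lay close together. In Fbp1-deleted liver Prkag2 was at 5.14 ± 0.71 and Prkaa2 at 6.49 ± 1.54 CPM per kb, and in WT liver Prkag2 was at 5.09 ± 0.94 and Prkaa2 at 4.24 ± 0.94 CPM per kb, with overlapping ranges in each group. Prkaa1 had 2.11 ± 0.26 CPM per kb in Fbp1-deleted and 2.39 ± 0.17 CPM per kb in WT liver. The lowest levels were those of Camkk2, at 0.790 ± 0.19 CPM per kb in Fbp1-deleted and 1.67 ± 0.42 CPM per kb in WT liver, and of Prkab2, at 0.745 ± 0.19 CPM per kb in Fbp1-deleted and 0.582 ± 0.063 CPM per kb in WT liver. The ranges of Camkk2 and Prkab2 overlapped in Fbp1-deleted livers and were separate in WT livers. In Fbp1-deleted livers the range of Prkaa2 also overlapped that of Prkab1, and in WT livers the range of Camkk2 met that of Prkaa1. With the length of the longest coding transcript instead, Prkag2 lay above Prkaa2 in both groups, at 10.01 CPM per kb in Fbp1-deleted and 9.90 CPM per kb in WT liver. By that length Camkk2 was at 1.77 CPM per kb in Fbp1-deleted and 3.76 CPM per kb in WT liver, so that its WT mean lay above that of Prkaa1, while Prkab2 was the lowest of the 8 in both groups by either length.

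The make-up of each subunit pair was described from the same length-scaled levels. Prkaa1 made up 23.4%, 24.9%, 33.2%, 24.2% and 20.04% of the alpha transcripts in Fbp1-deleted replicates 6 to 10, against 42.1%, 35.9%, 34.2%, 30.5% and 39.9% in WT replicates 1 to 5. The alpha2 transcript was thus the major form in every library, and more so in Fbp1-deleted livers except replicate 8, whose share lay within the WT range. The summed alpha level was 8.60 ± 1.62 CPM per kb in Fbp1-deleted and 6.62 ± 1.04 CPM per kb in WT liver (SD, n = 5 each). Prkab1 made up between 90.4% and 94.0% of the beta transcripts in Fbp1-deleted and between 93.0% and 95.7% in WT livers. Prkag1 made up between 73.6% and 81.9% of the gamma transcripts in Fbp1-deleted and between 68.7% and 81.5% in WT livers. Gamma transcripts summed to 22.9 ± 1.38 CPM per kb in Fbp1-deleted and 22.1 ± 1.21 CPM per kb in WT liver, above the alpha sums in all 10 libraries.

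**Figure D3:**
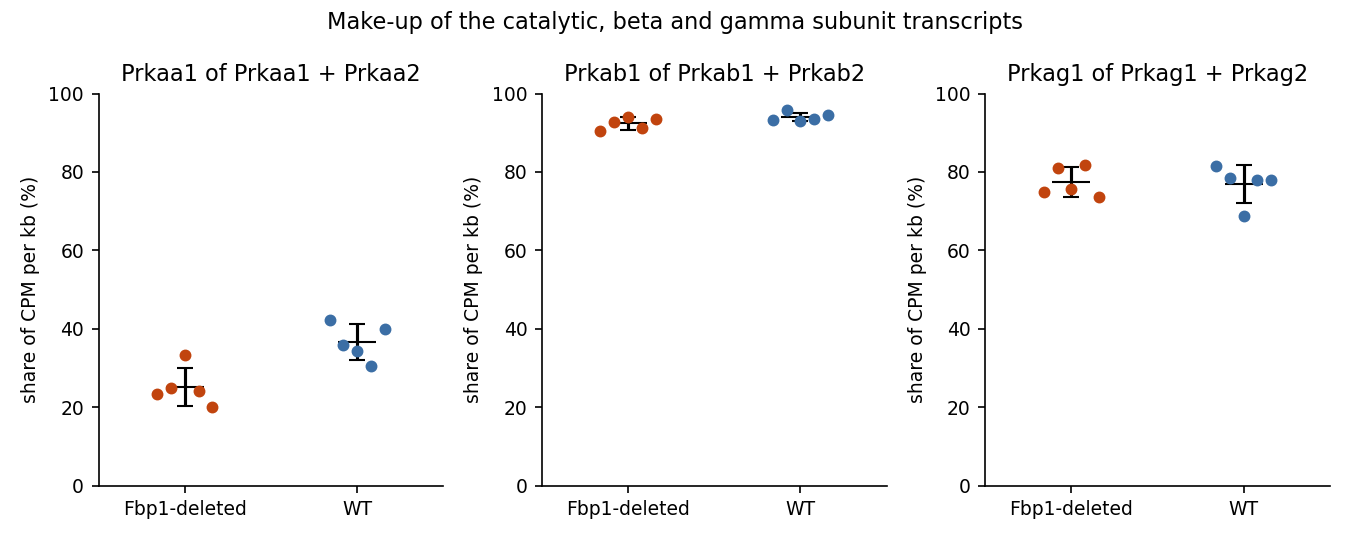
Share of the first-numbered isoform in the summed CPM per kb of each subunit pair (y axis, %), for Fbp1-deleted (left) and WT (right) livers; points are libraries and the black marks the mean and SD of 5. The alpha1 share is between 20.04% and 33.2% in Fbp1-deleted and between 30.5% and 42.1% in WT livers, and the ranges of all 3 pairs overlap between the groups.

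The windows around the starts of the 3 genes that passed the test are shown. They run from 250 bases before to 50 after the RefSeq start (GRCm38.p6) and give sequence context only. Capitals mark, on either strand, the GC box (GGGCGG), the CCAAT box (CCAAT), the core of the cyclic AMP response element (TGACG) and a FOXO site (GTAAACA).
Camkk2, chr5:122779361-122779660, minus strand: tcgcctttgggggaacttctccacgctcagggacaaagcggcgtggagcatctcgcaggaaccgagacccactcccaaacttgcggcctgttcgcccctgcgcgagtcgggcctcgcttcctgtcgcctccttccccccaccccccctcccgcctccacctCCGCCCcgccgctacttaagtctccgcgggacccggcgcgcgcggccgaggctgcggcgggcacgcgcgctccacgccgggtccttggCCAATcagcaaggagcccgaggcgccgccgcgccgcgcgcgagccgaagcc
Stk11, chr10:80115545-80115844, plus strand: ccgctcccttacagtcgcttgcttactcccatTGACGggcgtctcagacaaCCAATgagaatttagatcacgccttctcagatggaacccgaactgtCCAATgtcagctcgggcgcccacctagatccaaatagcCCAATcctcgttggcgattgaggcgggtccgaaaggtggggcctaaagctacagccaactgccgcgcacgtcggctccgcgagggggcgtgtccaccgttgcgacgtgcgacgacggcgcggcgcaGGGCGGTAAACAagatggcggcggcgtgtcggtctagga
Prkaa2, chr4:105109849-105110148, minus strand: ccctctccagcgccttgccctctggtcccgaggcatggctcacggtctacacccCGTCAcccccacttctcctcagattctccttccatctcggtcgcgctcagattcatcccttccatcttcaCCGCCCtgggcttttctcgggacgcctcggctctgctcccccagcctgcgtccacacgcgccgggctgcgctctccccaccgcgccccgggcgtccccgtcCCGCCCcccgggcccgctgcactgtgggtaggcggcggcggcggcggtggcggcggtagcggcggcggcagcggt
All 3 windows were rich in CpG, which does not set them apart from the members that did not pass. The windows of Prkaa1, Prkab1, Prkab2 and Prkag1 held 52, 30, 23 and 16 CpG. Those of Prkag2, which has several starts, held 25, 6 and 45. Camkk2 held 42 CpG, more than 97.0% of the 32851 promoter windows in the table, Stk11 33 (more than 91.4%) and Prkaa2 35 (more than 93.0%), where the median window held 7. The GC box, present in 35.7% of all windows, occurred 1 time in Camkk2, 1 time in Stk11 and 2 times in Prkaa2. The CCAAT box, in 37.4% of windows, occurred 1 time in Camkk2 and 3 times in Stk11. The core of the cyclic AMP response element, in 20.8% of windows, occurred 1 time in Stk11 and 1 time in Prkaa2, and the FOXO site, in 3.65% of windows, 1 time in Stk11, where it overlaps the GC box. The full element TGACGTCA (1.79% of windows), the TATA box TATAAA (13.6%) and the E-box CACGTG (7.15%) were searched on both strands and occurred in none of the 3 windows. Members that did not pass held such boxes too, with the GC box 5 times each in Prkaa1 and Prkab2. The core of the cyclic AMP response element occurred 1 time in Prkag1, while Prkab1 held none of the boxes searched. The core of the cyclic AMP response element is part of the full element, and these matches describe letters, not binding.

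The genes whose log2 CPM was most like that of a member were ranked by Pearson's r over the 10 libraries. These libraries differ in depth and span both genotypes, so r is a description only. Camkk2 was most like Zfp771 (r = 0.99) and Frat1 (r = 0.978), which fell by 0.89 and 0.91 on the log2 scale. Stk11 was most like Prr14 (r = 0.963) and Aup1 (r = 0.959), and Prkaa2 most like Cps1 (r = 0.984), the first enzyme of the urea cycle. For the remaining members the leading pairs were Fblim1 and Zbtb38 for Prkaa1, Cdan1 and Gpaa1 for Prkab1, Tmem50b and Golt1b for Prkab2, Phb and Xrcc3 for Prkag1, and Suclg2 and Cbl for Prkag2, with r between 0.89 and 0.952. None of those 10 genes passed the test.

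Of 19 listed partners and regulators of AMPK and LKB1, 18 were tested. Among them 3 rose and 0 fell (16.7%, where 20.6% of all genes tested passed), with a median log2 change of 0.10. With library totals, upper quartile factors, DESeq2 or without Fbp1-deleted replicate 8, 1 listed gene fell. Sesn2, a stress-induced sestrin reported to bind AMPK, was at 19.6 ± 1.86 CPM in Fbp1-deleted and 10.8 ± 3.14 CPM in WT liver (SD, n = 5 each), a change of 0.87 (SE 0.18, adjusted p = 0.00528, edgeR). Cab39, which encodes MO25alpha, the scaffold that holds LKB1 in its active complex, rose by 0.42 (SE 0.10, adjusted p = 0.0132, edgeR). Ppp2ca, a catalytic subunit of protein phosphatase 2A, stood at 186, 153, 126, 181 and 179 CPM in Fbp1-deleted replicates 6 to 10, against 84.8, 87.9, 97.9, 93.7 and 84.0 CPM in WT replicates 1 to 5, without overlap. Its change was 0.88 (SE 0.11, adjusted p = 0.000242, edgeR), and it shares 2985 exon bases with an opposite-strand transcript, which this library type cannot tell apart.

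At the lysosome, LKB1 is known to reach AMPK through AXIN, the Ragulator complex and the proton pump, with aldolase as the sensor of fructose bisphosphate. Of 20 listed genes, 3 rose and 1 fell (20% of those tested, near the 20.6% over all genes tested; median log2 change 0.07). Aldoa, an aldolase, was at 225 ± 54.0 CPM in Fbp1-deleted and 117 ± 10.3 CPM in WT liver (SD, n = 5 each), a change of 0.94 (SE 0.15, adjusted p = 0.000855, edgeR; the identifier with the higher count was used where the annotation gives this symbol to more than 1). Lamtor4, a Ragulator subunit, was lower at 37.1 ± 2.50 CPM in Fbp1-deleted against 45.4 ± 3.47 CPM in WT liver, a change of -0.29 (SE 0.09, adjusted p = 0.0375, edgeR). Lamtor4 did not pass when Fbp1-deleted replicate 6, 9 or 10 or WT replicate 1, 2, 3 or 5 was left out (highest edgeR adjusted p = 0.105).

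LKB1 also phosphorylates kinases related to AMPK. Of 12 listed, 1 rose and 1 fell (16.7%, where 20.6% of all genes tested passed), with a median log2 change of 0.25. Nuak2 stood at 4.65, 5.40, 6.74, 2.91 and 2.98 CPM in Fbp1-deleted replicates 6 to 10, against 12.3, 11.2, 13.0, 11.6 and 14.3 CPM in WT replicates 1 to 5. Its groups lay far apart, with a change of -1.45 (SE 0.21, adjusted p = 0.000538, edgeR). Sik1, a kinase known to be induced by cyclic AMP in liver, stood at 87.1, 83.8, 62.1, 164 and 139 CPM in Fbp1-deleted replicates 6 to 10, against 42.6, 50.3, 52.2, 55.7 and 55.0 CPM in WT replicates 1 to 5. The Fbp1-deleted livers were all higher and far more spread, giving a change of 1.07 (SE 0.23, adjusted p = 0.00874, edgeR). Without Fbp1-deleted replicate 8, 2 listed kinases rose and 2 fell, and without WT replicate 4, 2 rose.

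The list of genes that encode reported AMPK substrates was, like the members and the other lists, chosen with earlier results of these data known. Its share of calls is therefore a description only. Of these 27 genes, 8 rose and 3 fell (40.7%, where 20.6% of all genes tested passed), with a median log2 change of 0.04. The 3 with the smallest adjusted p were Acaca, the cytosolic acetyl-CoA carboxylase that AMPK inhibits, with a change of 1.52 (SE 0.14), Ulk1, the kinase that starts autophagy, with 1.06 (SE 0.11), and Ppargc1a, a coactivator of gluconeogenesis and mitochondrial genes, with 2.67 (SE 0.30; adjusted p between 1.23e-05 and 0.000266, edgeR). Ulk1 stood at 208, 207, 249, 206 and 216 CPM in Fbp1-deleted replicates 6 to 10, against 85.3, 101.5, 122, 114 and 98.8 CPM in WT replicates 1 to 5. The lowest Fbp1-deleted library was well above the highest WT library. The 3 that fell were Crtc2, the cyclic AMP-regulated coactivator, by 0.41 (SE 0.11, adjusted p = 0.0217), Hdac5, a class IIa histone deacetylase, by 0.40 (SE 0.13, adjusted p = 0.0402), and the mitochondrial protein gene Armc10, by 0.42 (log2; SE 0.14, adjusted p = 0.0479, edgeR). Crtc2 did not pass when Fbp1-deleted replicate 6 was left out (edgeR adjusted p = 0.0673). Those of Hdac5 and Armc10 were lost in 6 and 8 of the 10 fits without 1 library (highest edgeR adjusted p = 0.0968 and 0.127), in both cases including the fits without Fbp1-deleted replicate 6, 9 or 10 and without WT replicate 2 or 3; for Hdac5 WT replicate 5 and for Armc10 Fbp1-deleted replicates 7 and 8 and WT replicate 1 complete them.

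Of 16 listed enzymes of nucleotide metabolism, 15 were tested. Among them 2 rose and 3 fell (33.3%, where 20.6% of all genes tested passed), with a median log2 change of -0.0082. Ampd2, an AMP deaminase, was at 45.1 ± 6.09 CPM in Fbp1-deleted and 27.8 ± 4.20 CPM in WT liver (SD, n = 5 each), a change of 0.70 (SE 0.13, adjusted p = 0.00216, edgeR). Ak3, a mitochondrial adenylate kinase that uses GTP, was at 214 ± 22.7 CPM in Fbp1-deleted and 297 ± 22.3 CPM in WT liver, a change of -0.47 (SE 0.10, adjusted p = 0.0055, edgeR). Ak1 was below the filter on low counts, at 0.63 ± 0.54 CPM in Fbp1-deleted and 0.40 ± 0.26 CPM in WT liver. Ampd2 and Ak3 share 434 and up to 430 exon bases with an opposite-strand gene.

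**Figure D4:**
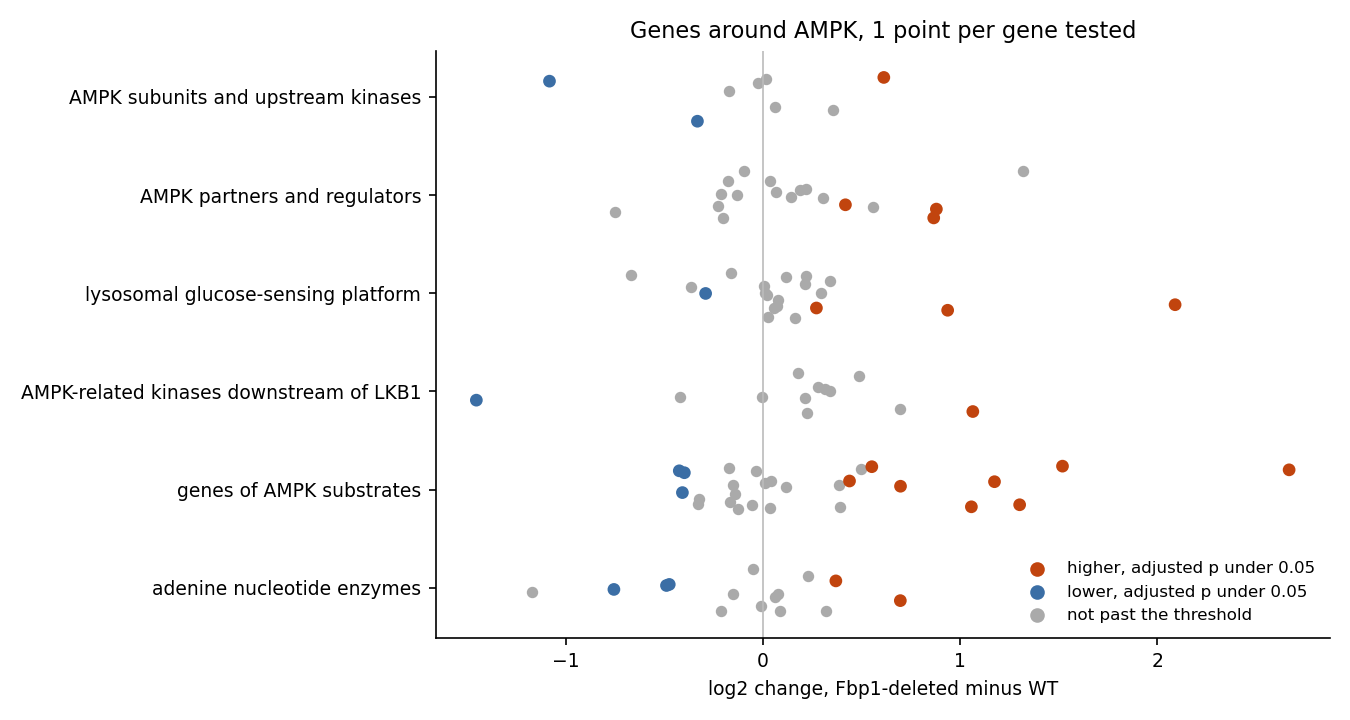
Log2 change, Fbp1-deleted minus WT (x axis), of each gene tested in the 8 members and the 5 lists around AMPK (y axis); red is higher and blue lower at an adjusted p under 0.05, grey is the rest, and vertical scatter within a row is only for display. The substrate genes, the longest list, hold the most calls, 8 higher and 3 lower of 27, and Ppargc1a at 2.67 is the highest point.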

How the data were processed

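RNA of 10 livers, 5 Fbp1-deleted and 5 WT, was grouped by sample title. Per the labels' protocols, mRNA libraries without strand were made. The authors deposited estimated counts per gene, 1 column per liver. CASAVA, Salmon and the build GRCm38 appear without versions in the submitters' processing notes, and the design text also describes STAR, featureCounts and DESeq2, so the route to the table, and any adjustment for transcript length, is open. Reads that suit several transcripts are shared out by Salmon's model, an error that replicates do not show. All deposited counts were whole numbers. Of 53392 genes, 52175 matched GENCODE M21 by identifier and version and 1180 by identifier.

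The test was that of edgeR 4.0.16 under R 4.3.3 (filterByExpr with a minimum of 10 counts, TMM scaling, robust quasi-likelihood F test, ~ group), with Benjamini-Hochberg adjustment over 15392 genes and a threshold of 0.05. SE is the size of the log2 change over the root of F. The 95% intervals use the residual degrees of freedom plus the prior degrees of freedom from the shrinkage of the fit. CPM is TMM-scaled. CPM per kb divides by merged exons. Log2 CPM has a prior count of 2. Data were simulated for Fbp1-deleted against WT over 15392 genes. Of 100 changes of 1 and 100 changes of 2 (log2), 79% and 96% were recovered, and 8 unchanged genes were called. The changed genes were drawn only from those with a mean above 1 CPM, so these shares do not cover rarer genes. Changes below 1 were not simulated, so these shares do not cover changes as small as those of Prkaa2, Stk11 and the members that did not pass. Libraries were checked for duplicates: the smallest within-group chi-square per degree of freedom was 16.2, where 1 library sequenced again gives about 1. The design text speaks of biological replicates. No replicate number occurs in both groups, so no libraries were paired.

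The members and lists were chosen with earlier results of these data known. Named were the 8 members; in each list the 3 smallest adjusted p among calls, calls against the list's main direction and genes below the filter; the 2 genes most like each member; and Fbp1. Some genes that this rule names are not reported here. The marker lists were those for hepatocytes, Kupffer cells and macrophages, and skeletal muscle given with the results, and for endothelial cells, stellate cells and fibroblasts, cholangiocytes, T cells, B cells, neutrophils and adipocytes. Alternatives were RLE and upper quartile factors, library totals, no filter, a minimum of 50 counts, DESeq2 1.42.0, limma-voom (limma 3.58.1), no robust shrinkage, a threshold of 0.01, each library left out and, for levels and shares, the longest coding transcript. Amino acid sequences were not used here.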

Additional observations from a re-analysis of the deposited data

Results flagged for a closer look

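Samples far from the other 4 of their group were sought in 56 groups of 5 values, by the gap to the nearest value as a share of the range, and 4 stood out, where chance gives about 1 in 20 groups. Among the members, Prkab2 was at 2.41 CPM in WT replicate 2 and between 3.0 and 3.25 CPM in the other WT libraries. The share of Prkag1 among gamma transcripts was 68.7% in WT replicate 3 and between 77.9% and 81.5% in the others. Among listed genes, Ulk1 was at 249 CPM in Fbp1-deleted replicate 8 and between 206 and 216 CPM in the other Fbp1-deleted libraries, and Crtc2 at 49.0 CPM in WT replicate 5 and between 35.8 and 39.3 CPM in the other WT libraries. Their causes were not tested.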

How the results depend on the processing

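No paired analysis was made, because the labels give no litter and no replicate number occurs in both groups. Whether any livers were paired cannot be told from these labels. The fall of Camkk2 passed under all 19 alternatives (changes between -1.23 and -0.98). Prkaa2 and Stk11 kept their direction under all 19, but neither passed without the filter on low counts (changes of 0.602 and -0.340, edgeR adjusted p = 0.0738 and 0.0667), or at an adjusted p of 0.01 (0.614 and -0.331). The cause of the loss without the filter was not tested. Over the 10 fits without 1 library the changes were between 0.503 and 0.720 for Prkaa2 and between -0.397 and -0.297 for Stk11. Without the filter, and likewise at 0.01, 0 members were higher and 1 was lower. The remaining 5 members passed in none of the 19. The changes of Prkag1 and Prkag2 took either sign over the settings that kept all libraries (lowest -0.029 and -0.063, highest 0.062 and 0.026). Leaving out 1 library gave between 1066 and 2060 genes higher and between 1019 and 1858 lower over the whole table, and an adjusted p of 0.01 gave 678 and 633.

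In the lists, upper quartile factors, library totals and DESeq2 each added 1 fall among the partners. The lysosomal list had 0 falls without the filter and at 0.01, and the substrates 0 falls at 0.01. The nucleotide enzymes had 1 rise with upper quartile factors, library totals, no filter or 0.01, and 1 fall at 0.01. The fits without 1 library gave 3 to 4 rises and 0 to 1 falls among partners, 2 to 3 and 0 to 2 in the lysosomal list, 1 to 2 and 1 to 2 among related kinases, 7 to 8 and 0 to 4 among substrates, and 1 to 3 and 1 to 4 among nucleotide enzymes. With the longest coding transcript as length, the mean share of Prkab1 was 94.6% in Fbp1-deleted and 95.7% in WT liver, and that of Prkag1 was 70.0% in Fbp1-deleted and 69.4% in WT liver. Those shares follow from the lengths used. Counts of 39 to 91 per library limit the precision for Prkab2.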

Other observations

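Several members overlap transcripts of the opposite strand, which a library without strand cannot separate. Prkag1 shares 950 exon bases with B130046B21Rik, which stood at 1.03 ± 0.08 CPM in Fbp1-deleted and 1.40 ± 0.71 CPM in WT liver (SD, n = 5 each). Prkag2 shares 795 exon bases with Prkag2os2, at 0.878 ± 0.19 CPM in Fbp1-deleted and 1.04 ± 0.21 CPM in WT liver, and 142 with Prkag2os1, at 0.652 ± 0.26 CPM in Fbp1-deleted and 0.847 ± 0.31 CPM in WT liver. None of the 3 passed the test (edgeR adjusted p between 0.381 and 0.591).

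Markers of other cell types differed in level between the types. B cell markers summed to between 1.44 and 3.59 CPM in Fbp1-deleted and between 3.66 and 7.04 CPM in WT libraries, with 2 of 3 tested lower. Endothelial markers summed to between 132 and 215 CPM in Fbp1-deleted and between 189 and 219 CPM in WT libraries, with 1 of 6 higher. That marker was Lyve1, with a change of 0.83. Pecam1, Kdr, Stab2, Clec4g and Cdh5 went the other way, with changes between -0.42 and -0.20 that did not pass. Stellate cell and fibroblast markers summed to between 188 and 250.2 CPM in Fbp1-deleted and between 141 and 212 CPM in WT libraries, with 1 of 6 higher. The 1 that passed was Dcn, with a change of 0.42 (adjusted p = 0.0491, edgeR). Lrat, Reln, Col1a1, Col3a1 and Des did not pass, with changes between -0.20 (Lrat) and 1.35 (Col1a1). No cholangiocyte (5 tested), T cell (3) or neutrophil (2) marker passed (edgeR), and no adipocyte marker was tested.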
